A study of Mus musculus with 2 samples.

Results

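The 39 genes described here carry out antigen presentation by major histocompatibility complex (MHC) proteins and the response to interferon. They were taken by gene symbol from 55536 annotated mouse genes, and no measured value is part of that rule. All 39 are annotated as protein-coding, and all were found in the gene tables. The samples are hippocampal total RNA libraries from 2 adult B6CASTF1/J females, the first-generation hybrid of the C57BL/6J and CAST/EiJ strains. Both were 8 to 10 months old, with no treatment or engineered allele named, and each gave 1 library from 300 ng of RNA with synthetic spike-in RNAs added. Replicate 2 is labelled animal 5 and replicate 1 is labelled animal 1, although the labels give both libraries the same donor identifier. The tissue is labelled as a layer of hippocampus, without saying which layer, and there is 1 group and no control or treated sample.

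MHC class I proteins display peptides from inside the cell on its surface. A heavy chain pairs with B2m, and the proteasome, or its inducible form the immunoproteasome, cuts the peptides. The Tap1 and Tap2 transporter with Tapbp loads these peptides. MHC class II proteins display peptides from engulfed material and are made by specialised immune cells, in the brain mainly by microglia and border macrophages. Type I interferons bind the receptor Ifnar1 and Ifnar2, which signals to factors such as Stat2 and Irf9 that switch on interferon-stimulated genes. Many of those carry an interferon-stimulated response element, or ISRE, near their start.

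Replicate 2 had 28356913 expected counts on annotated genes and replicate 1 had 34147402. Hippocampal principal cell markers were detected in 8 of 8 cases, and microglial markers in 11 of 11, with summed levels of 229 TPM (a transcript abundance normalised for length and depth) in replicate 2 and 217 TPM in replicate 1. Choroid plexus epithelium markers were higher in replicate 2 for 10 of 10 genes, with a sum of 651 TPM in replicate 2 against 30.6 TPM in replicate 1, and 7 of the 7 with enough counts met the 2-fold criterion given further on. Border macrophage markers summed to 3.43 TPM in replicate 2 and 6.77 TPM in replicate 1, and 4 of the 4 with a mean count of at least 10 were lower in replicate 2. In RNA from whole tissue, fewer cells of a type and less RNA per cell cannot be told apart.

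In both animals, most of the RNA in the set came from B2m, Ifi27, the immunoproteasome subunit Psmb10, the interferon receptor and its transcription factors, while the class II alpha and beta chains and 6 of the 12 interferon-stimulated effectors lay below 1 TPM. A gene was called detected at 1 TPM or more in both animals. By that rule 24 of the 39 genes, or 61.5%, were detected, close to the 59.1% of 22028 protein-coding genes. Another 12 lay under 1 TPM in both animals, and 3 passed in 1 animal only. The 39 genes summed to 332 ± 3.8 TPM (SD, n = 2), which was 0.0254% ± 0.00018 of expected counts. B2m and Ifi27 together made up 34.6% ± 1.3 of that TPM, and 10 genes averaged at least 10 TPM.

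**Figure D1:**
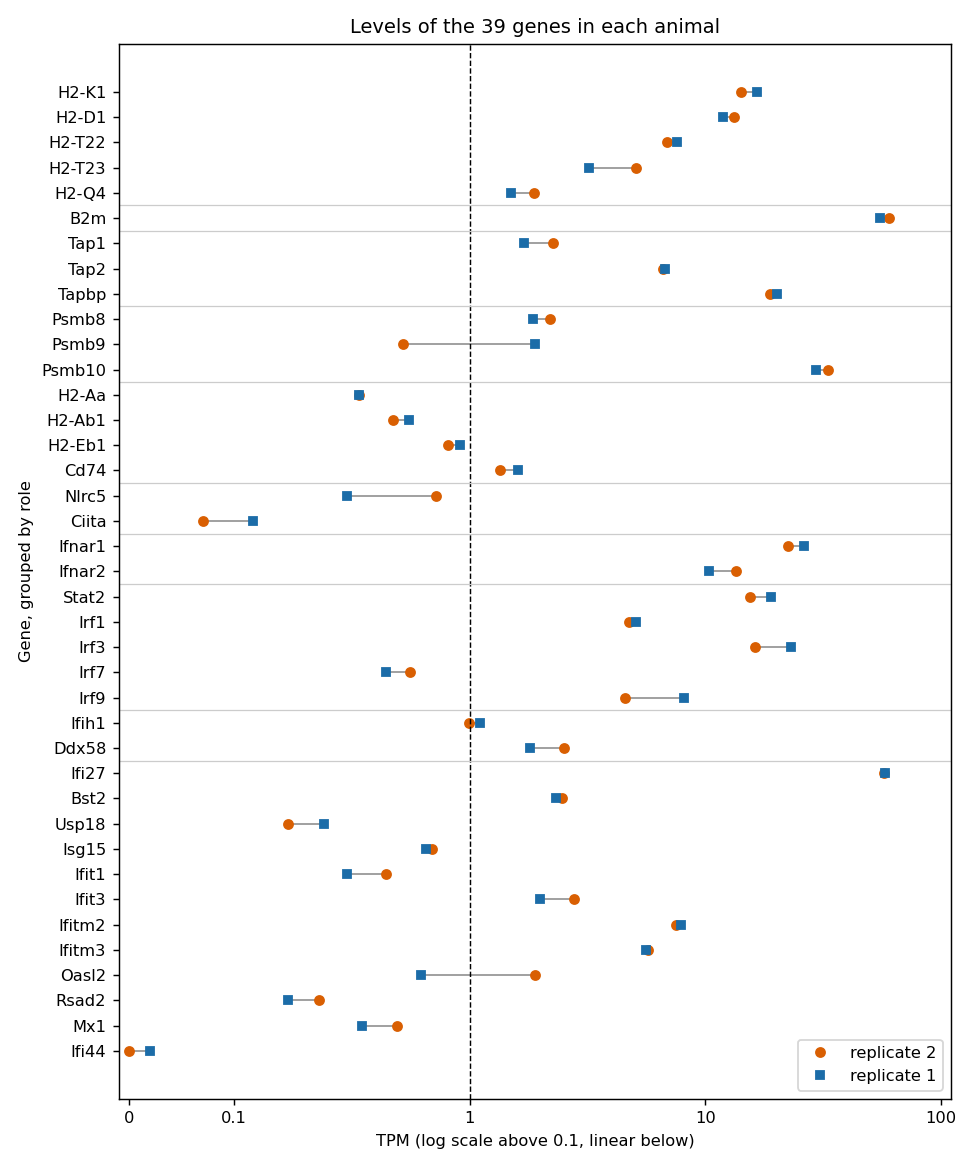
Level of each of the 39 genes in TPM on a log scale, grouped by role, with 1 point for each animal. B2m and Ifi27 lead at means of 57.5 and 57.4 TPM, and Ifi44, at the low end, is listed at 0 TPM in replicate 2.

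The class I heavy chains were all detected, and their order was the same in both animals. H2-K1, a classical heavy chain, had 14.2 TPM in replicate 2 and 16.5 TPM in replicate 1. H2-D1, the other classical chain, had 13.3 TPM in replicate 2 and 11.8 TPM in replicate 1. H2-T22, a non-classical chain recognised by some gamma-delta T cells, had 6.90 TPM in replicate 2 and 7.61 TPM in replicate 1. These 3 genes gave most of the heavy chain RNA. H2-T23, which encodes Qa-1, a ligand of receptors on natural killer cells, had 5.09 TPM in replicate 2 and 3.22 TPM in replicate 1. H2-Q4, a further non-classical chain, had 1.88 TPM in replicate 2 and 1.5 TPM in replicate 1. The order H2-K1, H2-D1, H2-T22, H2-T23, H2-Q4 held at every step in the gene table, with each gap larger than the SD of either neighbour and of the same sign in both animals. That is the sense in which genes are called apart in what follows.

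The heavy chains are close relatives, and reads can be shared among them. Of the 31-base stretches of annotated H2-T22 transcripts, 51.0% also occur in another gene, most often H2-T10. The share was 38.4% for H2-Q4, 26.7% for H2-D1, 24.5% for H2-T23 and 22.8% for H2-K1. Each of these levels is therefore uncertain as to the exact gene. How reads from CAST/EiJ alleles were treated is not stated, and its effect on these levels and their order was not tested. A second deposited transcript table gave H2-Q4 a mean of 3.34 ± 1.2 TPM, 1.98 times that of the gene table, and kept the other 4 heavy chains within 1.5-fold. In that table H2-T23, at 4.18 TPM, and H2-Q4 were not apart, while the earlier steps of the order held.

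B2m, the invariant light chain of all class I molecules, ranked 2056 of 22028 protein-coding genes. It had 59.9 TPM in replicate 2 and 55.0 TPM in replicate 1, a mean of 57.5 ± 3.5. The 5 heavy chains summed to 41.3 TPM in replicate 2 and 40.7 TPM in replicate 1. B2m RNA was thus 1.40 ± 0.070 times the sum of the heavy chains listed here, whose levels carry the limits given above. B2m shares no 31-base stretch with another gene and has a single annotated transcript.

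The 3 peptide-loading genes stood in the order Tapbp, Tap2, Tap1, each pair apart. Tapbp, or tapasin, which tethers the empty class I molecule to the transporter, had 18.8 TPM in replicate 2 and 20.2 TPM in replicate 1. Tap2 had 6.60 TPM in replicate 2 and 6.71 TPM in replicate 1. Its partner Tap1 had 2.25 TPM in replicate 2 and 1.70 TPM in replicate 1. The transporter subunits, which work as a pair, thus stood at unequal RNA levels, but only 29.3% ± 7.2 of Tap2 TPM lay on protein-coding transcripts. On protein-coding transcripts alone, Tap2 had 1.6 TPM in replicate 2 and 2.30 TPM in replicate 1, while Tap1 had 1.45 TPM in replicate 2 and 1.28 TPM in replicate 1. The second transcript table put 53.3% ± 1.8 of Tap2 on such transcripts. There Tap2 coding transcripts had 3.56 TPM in replicate 2 and 4.19 TPM in replicate 1, and those of Tap1 had 0.866 TPM in replicate 2 and 0.916 TPM in replicate 1. Tap2 stood apart above Tap1 on summed coding transcripts in both tables, by a larger gap in the second. In the gene table most Tap2 coding TPM lay on the short transcripts Tap2-203 and Tap2-204, of 376 and 378 bases. The longest coding transcript, Tap2-201, had 0.47 TPM in replicate 2 and 0.39 TPM in replicate 1. That was below Tap1-206, which held all coding TPM of Tap1 in that table. In the second table Tap2-201 had 0.938 TPM in replicate 2 and 1.04 TPM in replicate 1. Among 14 further class I and peptide supply genes 9 were detected, and general chaperones led them. Canx, calnexin, had 175 TPM in replicate 2 and 204 TPM in replicate 1, and Calr, calreticulin, had 168 TPM in replicate 2 and 305 TPM in replicate 1.

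Among the immunoproteasome subunits, which replace the constitutive catalytic subunits under interferon, Psmb10 made up 90.6% ± 2.6 of the TPM. Psmb10 had 33.1 TPM in replicate 2 and 29.5 TPM in replicate 1. Psmb8 had 2.19 TPM in replicate 2 and 1.85 TPM in replicate 1. Psmb9 had 0.52 TPM in replicate 2 and 1.90 TPM in replicate 1, from 13 counts in replicate 2 and 43 in replicate 1. Psmb10 and Psmb8 were detected and apart, whereas Psmb9 reached 1 TPM in replicate 1 only. Tap1 and Psmb9 lie head to head on chromosome 17, with 212 overlapping bases on opposite strands. Reads of this stretch could fit either gene if strand was not used in counting. The posterior SD of the count, a signal of uncertain read assignment, was 0 for each gene in the library with its higher count.

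Set against its constitutive counterpart, each immunoproteasome subunit was in the minority. Psmb10 made up 25.0% ± 1.1 of Psmb10 plus Psmb7, Psmb8 made up 2.14% ± 0.18 of Psmb8 plus Psmb5, and Psmb9 made up 1.36% ± 1.2 of Psmb9 plus Psmb6. Across all 6 catalytic genes the immunoproteasome share was 11.1% ± 0.066 of TPM. Counting protein-coding transcripts alone, the share was 3.39% ± 0.67, since most Psmb10 TPM lay on transcripts annotated otherwise. The constitutive genes were even, between 94.3 and 96.5 TPM in replicate 2 and between 85.5 and 92.4 TPM in replicate 1.

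**Figure D2:**
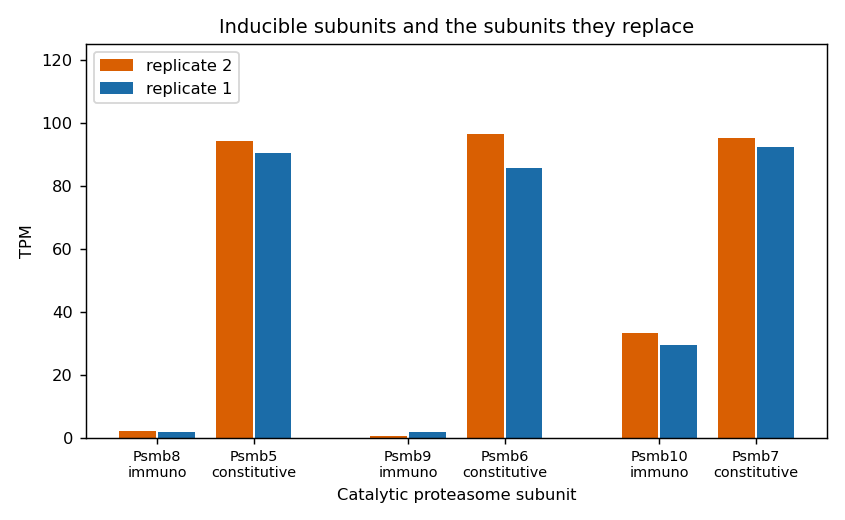
Levels in TPM of the catalytic proteasome subunits, each immunoproteasome subunit beside its constitutive counterpart, with 1 value for each animal. Psmb10 reaches 33.1 TPM in replicate 2 and 29.5 TPM in replicate 1, and the constitutive subunits lie above it, at 85.5 TPM or more.

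Class II genes were low. Cd74, the invariant chain that guides class II molecules to their peptides, was the only one detected, with 1.34 TPM in replicate 2 and 1.6 TPM in replicate 1. The beta chain H2-Eb1 had 0.81 TPM in replicate 2 and 0.91 TPM in replicate 1, from 16 counts in replicate 2 and 28 in replicate 1. H2-Ab1, the other beta chain, had 0.47 TPM in replicate 2 and 0.55 TPM in replicate 1. Both beta chains lay under 1 TPM in each animal. H2-Aa, an alpha chain, had 0.34 TPM in each animal. The 4 genes together summed to 2.96 TPM in replicate 2 and 3.40 TPM in replicate 1. Among other class II genes, 5 of 10 were detected, led by the lysosomal protease Ctss, with 28.7 TPM in replicate 2 and 30.0 TPM in replicate 1, and by Rfxap, a subunit of the factor that binds class II promoters, with 24.5 TPM in replicate 2 and 27.1 TPM in replicate 1.

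Neither MHC transactivator was detected. Nlrc5, the transactivator of class I genes, had 0.72 TPM in replicate 2 and 0.30 TPM in replicate 1, from 31 counts in replicate 2 and 21 in replicate 1. Ciita, the transactivator of class II genes, had 0.07 TPM in replicate 2 and 0.12 TPM in replicate 1, from 5 counts in replicate 2 and 6 in replicate 1. Professional antigen-presenting and lymphoid cells had few detected markers. Dendritic cell markers were detected in 2 of 6 cases, T cell markers in 1 of 6, B cell markers in 0 of 5 and natural killer cell markers in 0 of 4. Summed T cell markers came to 2.31 TPM in replicate 2 and 1.23 TPM in replicate 1, with Cd3e, Cd3g and Cd8a at 0 counts in both animals. Summed B cell markers came to 0.69 TPM in replicate 2 and 0.71 TPM in replicate 1.

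Both chains of the type I interferon receptor were present, and no RNA was found for the ligand genes searched. Those ligand genes include interferons other than type I and only some of the interferon alpha genes. Ifnar1 had 22.5 TPM in replicate 2 and 26.2 TPM in replicate 1. Ifnar2 had 13.4 TPM in replicate 2 and 10.3 TPM in replicate 1. The chains were apart, with Ifnar1 at 2.10 ± 0.61 times Ifnar2. All 11 interferon ligand genes searched had 0 counts in both libraries, which allows each up to 3 counts, or 0.106 (replicate 2) and 0.0879 (replicate 1) when scaled to library size as CPM. Of 13 further receptor and signalling genes 10 were detected, led by the kinase Jak1, for which replicate 2 gave 63.3 TPM and replicate 1 gave 64.2 TPM.

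Of the interferon transcription factors, Irf3, Stat2, Irf9 and Irf1 were detected and Irf7 was not. Irf3, which is activated by nucleic acid sensors, had 16.3 TPM in replicate 2 and 23.1 TPM in replicate 1. Stat2 had 15.5 TPM in replicate 2 and 18.9 TPM in replicate 1. Irf9, its DNA-binding partner, had 4.57 TPM in replicate 2 and 8.13 TPM in replicate 1. All 3 were lower in replicate 2. Irf1, a factor induced by interferon gamma, had 4.72 TPM in replicate 2 and 5.07 TPM in replicate 1. Irf7, which amplifies the type I response, had 0.56 TPM in replicate 2 and 0.44 TPM in replicate 1, from 8 counts in replicate 2 and 14 in replicate 1, none of them assigned to a protein-coding transcript. Irf3 and Stat2 were not apart, nor were Irf9 and Irf1, whereas Stat2 was apart from Irf9. Irf9 shares 123 bases with Rnf31 on the same strand, and Rnf31 had 18.5 TPM in replicate 2 and 19.1 TPM in replicate 1.

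The cytosolic RNA sensors were near the detection limit. Ddx58, which encodes RIG-I, had 2.51 TPM in replicate 2 and 1.81 TPM in replicate 1. Ifih1, which encodes MDA5, had 0.99 TPM in replicate 2 and 1.11 TPM in replicate 1. In the second transcript table Ddx58 stood at 4.34 ± 0.43 TPM, 2.01 times its level in the gene table. Of 11 matched genes of other nucleic acid sensing, 7 were detected, led by the kinase Tbk1 with 33.2 TPM in replicate 2 and 31.04 TPM in replicate 1.

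The 12 interferon-stimulated effectors spanned a wide range, with 5 detected and 6 under 1 TPM in both animals. Ifi27, whose product is a small membrane protein, had 57.0 TPM in replicate 2 and 57.7 TPM in replicate 1, and was not apart from B2m. Ifitm2 and Ifitm3 encode membrane proteins that block virus entry. Ifitm2 had 7.47 TPM in replicate 2 and 7.85 TPM in replicate 1, and Ifitm3 had 5.70 TPM in replicate 2 and 5.58 TPM in replicate 1. Bst2, or tetherin, which holds budding virus at the cell surface, had 2.46 TPM in replicate 2 and 2.32 TPM in replicate 1, but 1.42 ± 0.43 TPM in the second table. Ifit3, of a family that binds viral RNA, had 2.76 TPM in replicate 2 and 1.99 TPM in replicate 1. The share of 31-base stretches found in other genes was 61.8% for Ifit3, all with Ifit3b, 55.5% for Ifitm2, mostly with Gm45717, and 20.5% for Ifitm3, so these levels may include reads of the relatives.

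The undetected effectors include some of the most widely used interferon reporters. Isg15, a ubiquitin-like modifier, had 0.69 TPM in replicate 2 and 0.65 TPM in replicate 1, from 8 counts in replicate 2 and 9 in replicate 1. Ifit1, a relative of Ifit3, had 0.44 TPM in replicate 2 and 0.30 TPM in replicate 1. Rsad2, or viperin, had 0.23 TPM in replicate 2 and 0.17 TPM in replicate 1. Usp18, which removes Isg15 from proteins, had 0.17 TPM in replicate 2 and 0.24 TPM in replicate 1. These 4 genes thus lay below the detection limit in each animal. Mx1, an antiviral GTPase, had 0.49 TPM in replicate 2 and 0.35 TPM in replicate 1. Ifi44 had 0 counts in replicate 2 and 1 count in replicate 1. Oasl2, an oligoadenylate synthetase-like protein, had 1.90 TPM in replicate 2 and 0.62 TPM in replicate 1, from 39 counts in replicate 2 and 18 in replicate 1. Among 33 matched interferon-stimulated genes outside the set, 17 were detected, led by the RNA-editing enzyme Adar with 60.7 TPM in replicate 2 and 69.2 TPM in replicate 1.

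The promoters of these genes give context for the contrast between Isg15, Ifit1 and Bst2, which were low, and B2m, which was high. The 4 stretches shown hold ISRE cores and come from RefSeq promoter windows on GRCm38.p6, written in the direction of transcription. Capitals mark matches to the core (GAAA, any 2 bases, then GAAA) on either strand, overlapping matches joined. They lie at chr4:156200863-156200908 on the minus strand for Isg15, chr19:34640773-34640825 on the plus strand for Ifit1, chr8:71537575-71537614 on the minus strand for Bst2, and chr2:122147536-122147569 on the plus strand for B2m.
Isg15: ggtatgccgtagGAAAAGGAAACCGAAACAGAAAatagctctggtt
Ifit1: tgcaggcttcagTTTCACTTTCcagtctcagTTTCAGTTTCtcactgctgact
Bst2: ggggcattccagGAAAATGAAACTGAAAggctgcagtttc
B2m: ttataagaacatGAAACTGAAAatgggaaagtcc

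Isg15 has 3 overlapping cores, the first starting 78 bases before the annotated start. Ifit1 has 2 separate cores, read on the opposite strand, from 104 bases before the start. Bst2 has 2 overlapping cores from 130 bases before the start, and B2m has 1 core 139 bases before it. The same core thus stood in front of a gene at 57.5 TPM and of genes with means of 0.67 TPM (Isg15) and 0.37 TPM (Ifit1). A match describes the letters of the reference sequence only and shows no binding. The CAST/EiJ sequence of these promoters was not examined.

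Windows from 250 bases before to 50 bases after the start were found for 31 of the 39 genes, 34 windows in all. The genes without one were Mx1, H2-Ab1, Ciita, Nlrc5, Cd74, Ifi27, Tap2 and Usp18. The ISRE core occurred in windows of 13 of the 31 genes, 38.2% of their windows, against 3.44% of all 32851 windows. Those genes were H2-T22, H2-T23, B2m, Stat2, Bst2, Isg15, Ifit1, Ifit3, Ifitm2, Ifitm3, Rsad2, Ifih1 and Ddx58. Their mean levels ran from 0.20 TPM for Rsad2 to 57.5 TPM for B2m, with 3 under 1 TPM. The core TTCNNNGAA of the gamma-activated site, or GAS, was searched on both strands. It occurred in 6 of the 34 windows, against 8.30% of all windows, and in 6 genes. These were Psmb8, Irf1, Bst2, Ifitm3, Ifnar1 and Ifnar2, and in Bst2 and Ifitm3 the match partly overlaps an ISRE core. For the remaining windows, only the absence of these letters is shown. The windows of Tap1 and Psmb9, whose starts are 226 bases apart, share 275 bases and held neither core.

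**Figure D3:**
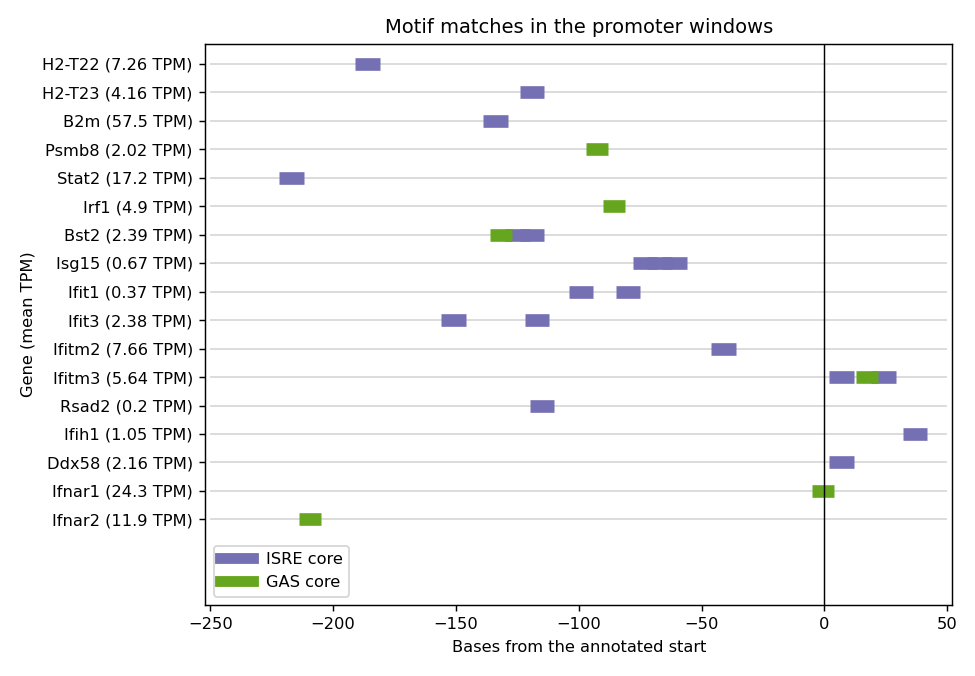
Position of ISRE and GAS core matches in the promoter window of each gene with a match, in bases from the annotated start, with the gene's mean TPM beside its name. Isg15 and Bst2 have overlapping matches, and the ISRE genes range from 0.20 to 57.5 TPM.

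Several of the genes had much of their TPM assigned to transcripts that are not annotated as protein-coding. The libraries are of total RNA, and whether the reads assigned to these transcripts come from fully processed RNA was not tested. Of 20 detected genes with several annotated transcripts, 5, or 25.0%, had under 50% of TPM on protein-coding transcripts in both animals, against 10.2% of 11777 such genes. They were Tap2, Psmb10, Stat2, Irf3 and Ifi27. The median coding share was 70.4% for the 20 genes and 85.1% for all such genes.

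Ifi27 had 31.6% ± 4.1 of its TPM on protein-coding transcripts and the remaining 68.4% ± 4.1 on transcripts annotated as retaining an intron. Its leading transcript, the retained-intron Ifi27-209, had 22.7 TPM in replicate 2 and 24.1 TPM in replicate 1. The leading coding transcript, Ifi27-205, had 9.51 TPM in replicate 2 and 10.2 TPM in replicate 1. On coding transcripts alone Ifi27 averaged 18.1 ± 2.2 TPM, which was apart from B2m and from Psmb10 but not from Ifnar1. In the second table it was apart from Ifnar1 too, at 20.6 TPM against 11.8 TPM.

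Psmb10 had 25.9% ± 4.3 of its TPM on coding transcripts. Its retained-intron transcript Psmb10-205 had 16.5 TPM in replicate 2 and 12.2 TPM in replicate 1, and the coding Psmb10-201 had 7.57 TPM in replicate 2 and 8.53 TPM in replicate 1. Irf3 had 35.6% ± 10 and Stat2 had 45.4% ± 0.92 of TPM on coding transcripts. H2-K1 was near the limit, with 51.2% in replicate 2 and 37.9% in replicate 1. On coding transcripts alone the classical heavy chains changed places, since H2-D1 averaged 10.7 TPM and H2-K1 averaged 6.76 TPM, and they were apart. In TPM each count is divided by transcript length, which raises short transcripts.

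By share of counts rather than TPM, 4 genes fell below 50% in both animals, against 5.85% of all such genes, namely Tap2, Psmb8, Irf3 and Ifi27. By the second transcript set the genes below 50% were also 5 in number, namely Psmb10, Stat2, Irf3, Ddx58 and Ifi27. For that set the share of all such genes was not computed, so this count has no background. Irf3 and Ifi27 were below 50% by every one of these measures. Stat2 stood at 85.1% in replicate 2 and 85.4% in replicate 1 by counts, so its low share held only per length.

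**Figure D4:**
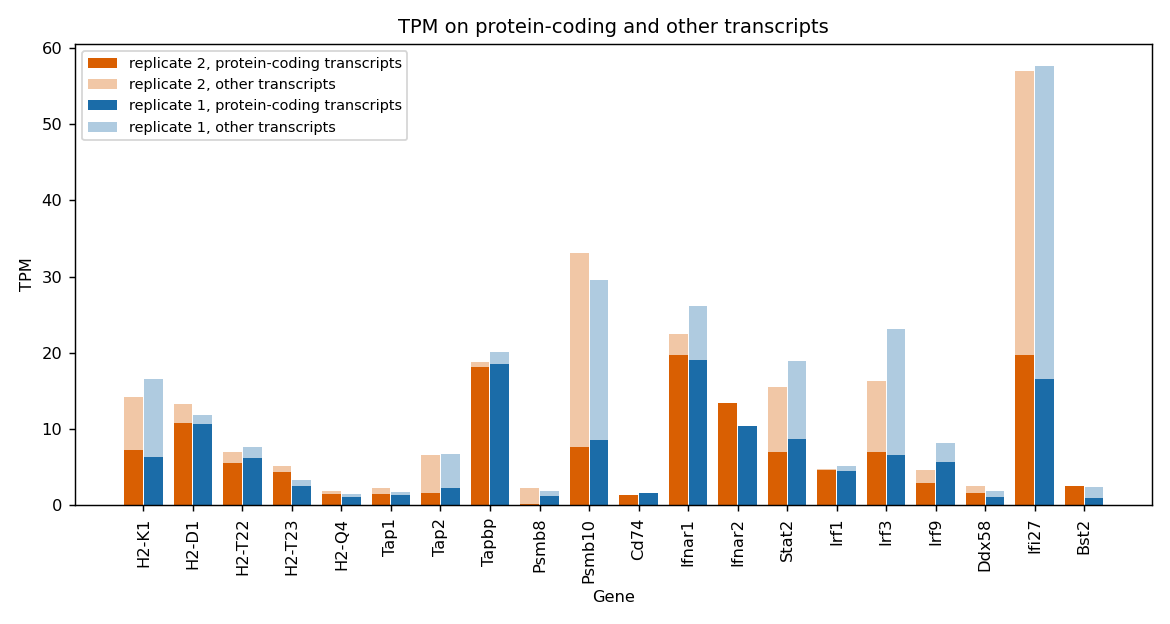
TPM of the 20 detected genes with several annotated transcripts, with 1 bar for each animal. Each bar is split into protein-coding transcripts (full colour, below) and other transcripts (pale, above). In Ifi27, Psmb10, Tap2, Irf3 and Stat2 the protein-coding part is under 50% of the bar in both animals. In H2-K1 it is 51.2% in replicate 2 and 37.9% in replicate 1.

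Between the animals, none of the genes with enough counts differed 2-fold. The ratio of replicate 2 to replicate 1 was called 2-fold where the log2 ratio reached 1 in size, the mean count was at least 50, and the exact 95% interval of the ratio excluded 1. The interval covers counting error only and says nothing of animals in general. Of 22 genes tested 0 met it, against 1.10% of 14434 genes, and DESeq2 size factors also gave 0. With counts scaled to the spike-ins 1 gene met it, Irf9, but the share of all genes meeting it under that scaling was not computed. With 1 library for each animal no p-value was computed. The median absolute log2 ratio was 0.14 for the 22 genes and 0.14 for all genes tested.

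The interval excluded 1 for 7 of the 22, or 31.8%, against 44.3% of all genes tested. H2-D1, H2-T23, Tap1 and Ddx58 were higher in replicate 2, as were 18.7% of all genes. H2-T23 had a log2 ratio of 0.64 (95% interval 0.26 to 1.04) and Ddx58 had 0.63 (0.28 to 1.01). For H2-D1 the log2 ratio was 0.24 and for Tap1 it was 0.39, with lower bounds of 0.04 and 0.01. Scaled to the spike-ins H2-D1 stood at −0.0057, on the other side of 0, and Tap1 at 0.16 with an interval that included 1. Under that scaling the interval excluded 1 on the higher side for 2 genes, against 3.42% of all genes tested, and on the lower side for 8, against 66.4%. The 5 genes added on the lower side were H2-T22, Tap2, Ifnar1, Irf1 and Ifi27, at log2 ratios between −0.38 and −0.28. Choroid plexus epithelium markers, at 651 TPM in replicate 2 against 30.6 TPM in replicate 1, mostly from Ttr, were also higher in replicate 2. The part of these markers in the ratios was not tested.

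Stat2, Irf3 and Irf9 were lower in replicate 2, as were 25.6% of all genes. Irf9 had a log2 ratio of −0.80 (95% interval −1.07 to −0.54), a 1.74-fold lower count. Irf3 had a log2 ratio of −0.52 (−0.74 to −0.30) and Stat2 one of −0.33 (−0.48 to −0.18). Together with Irf1 and Irf7, all 5 interferon transcription factors had log2 ratios of counts below 0, although the TPM of Irf7 was higher in replicate 2. The log2 intervals of Irf1 (−0.45 to 0.18) and Irf7 (−2.01 to 0.80) included 0, and 51.5% of all genes with a mean count of at least 10 had log2 ratios below 0. Their TPM summed to 41.6 in replicate 2 and 55.7 in replicate 1. The border macrophage marker sum of 3.43 TPM in replicate 2 against 6.77 TPM in replicate 1 moved the same way. Meningeal fibroblast markers were also lower in replicate 2 for 5 of 6 genes, with sums of 72.7 TPM in replicate 2 and 90.3 TPM in replicate 1. The part of either cell type was not tested.

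Among all 34 genes with a mean count of at least 10, 19 had log2 ratios above 0 and 15 below, with a median of 0.07, against −0.01 for 18612 genes. Scaled to the spike-ins, 11 were above 0 and 23 below, as were 79.9% of all genes. Of the class I heavy chains 4 of 5 were above 0, among which H2-K1, at −0.16, and H2-D1 fell below 0 when scaled to the spike-ins, and H2-Ab1, H2-Eb1 and Cd74 were below 0. Each of these 3 class II log2 intervals included 0, at −1.68 to 1.07 for H2-Ab1, −1.53 to 0.39 for H2-Eb1 and −1.04 to 0.44 for Cd74. The border macrophage markers given above were likewise lower in replicate 2, although only 1 of those 6 markers was detected. Microglial markers were higher in replicate 2 for 7 of 11 genes and lower for 4, with sums of 229 TPM in replicate 2 and 217 TPM in replicate 1. The part of either cell type was not tested. Without the count minimum, Oasl2 and Psmb9 passed, against 4.06% of genes. Oasl2 had a log2 ratio of 1.28 (95% interval 0.53 to 2.27), and Psmb9 had one of −1.35 (−2.49 to −0.55). Both rest on the few counts given above.

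**Figure D5:**
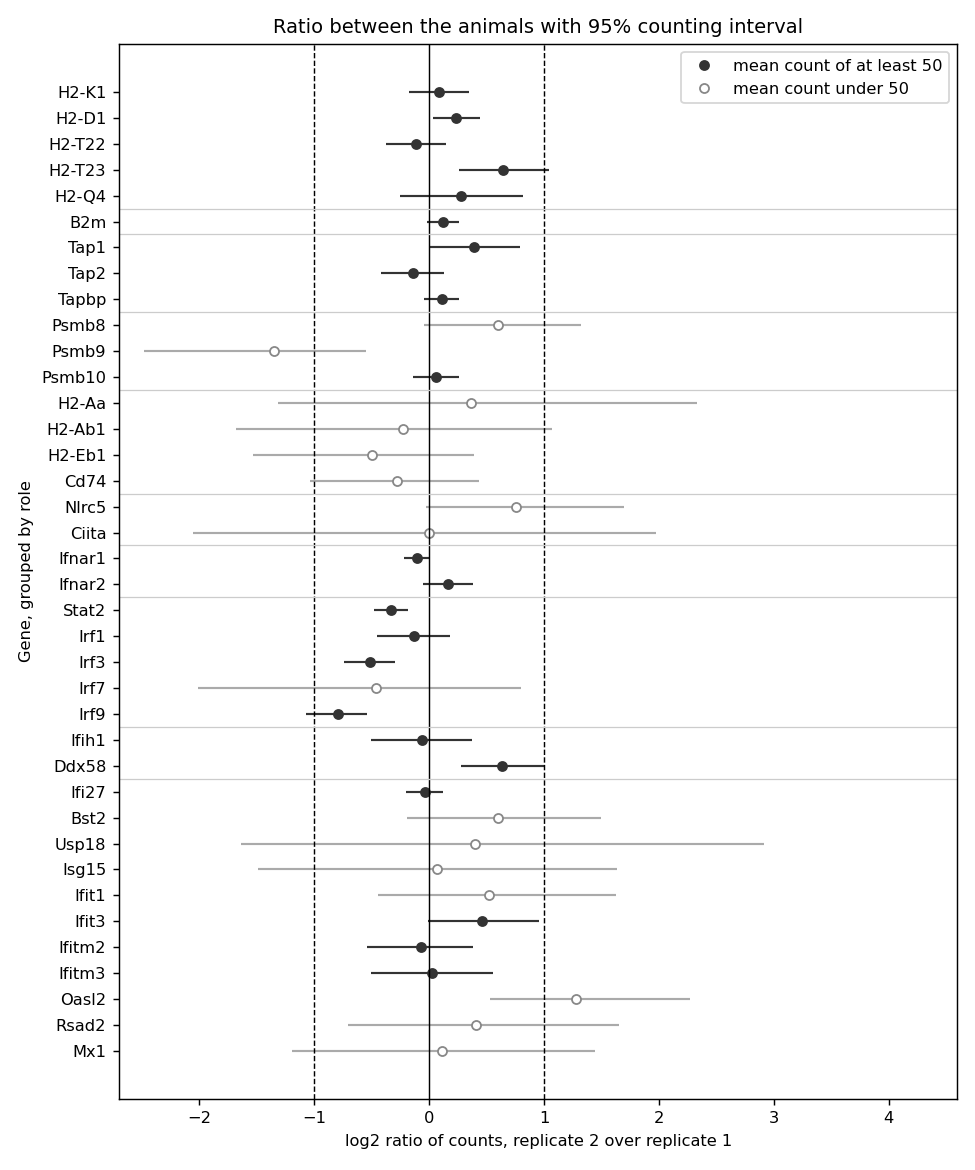
Log2 ratio of counts, replicate 2 over replicate 1, for each gene with a count in both animals, with exact 95% counting intervals and dashed lines at a 2-fold difference. The filled points, for genes with a mean count of at least 50, lie between −0.80 for Irf9 and 0.64 for H2-T23.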

How the data were processed

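The authors deposited, for each library, a gene table and 2 transcript tables annotated with GENCODE M21 on mm10. Per the file headers, the first gene and transcript tables hold expected counts, TPM, FPKM and a posterior standard deviation of the count, used here as a signal of uncertain read assignment. The second transcript table holds estimated counts and TPM deposited by the authors. The sources used here do not state program versions, the strand setting of the counting or how CAST/EiJ reads were treated.

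Expected counts were rounded to whole numbers. Ratios were scaled by trimmed mean of M values in edgeR 4.0.16 (R 4.3.3) with a prior count of 2, and intervals are exact Clopper-Pearson intervals. Tables were read with pandas 2.3.3. The ratio step was tested on simulated data with 200 changed genes. The genes, pathway lists and markers were chosen with earlier results of these data known. All 39 genes are named, and of each pathway list at most the 2 highest genes (none differed 2-fold). Outside that rule, all 3 constitutive catalytic subunits are named as counterparts, and relatives or overlapping genes where reads may be shared. Alternatives were DESeq2 1.42.0 size factors, total counts, spike-in scaling, the second table, other minimums, FPKM and each library alone. A share by expected counts was added after seeing the data. Intervals and floors cover counting error only, and each SD is the spread between 2 libraries. The labels give them different animal numbers but the same donor identifier, so whether this spread is between animals is not settled. The largest posterior SD was 0.341 of the square root of the count.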

Additional observations from a re-analysis of the deposited data

How the results depend on the processing

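No paired analysis was possible because there is 1 group and no comparison between groups. The number of detected genes, 24, was 29 at 0.5 TPM, 18 at 2 TPM, 23 in the second table and 29 with TPM rescaled to nuclear protein-coding genes. Left with a single animal, it was between 25 and 26. The share of all protein-coding genes was computed only at 1 TPM in both animals, so the other settings have no background. Without a count minimum 2 genes differed 2-fold in place of 0, and with spike-in scaling 1 did, Irf9 at a log2 ratio of −1.04. Under spike-in scaling the 2-fold share of all genes was not computed. Spike-in scaling moved the median of all genes to −0.25 and that of the 34 genes here to −0.17, below 0 where trimmed means gave 0.07, and relative to all genes the median was 0.08 under both. It turned 7 of the 22 log2 ratios below 0: H2-D1 at −0.0057, H2-K1, B2m, Tapbp, Psmb10, Ifnar2 and Ifitm3. Tap1, at 0.16, no longer had an interval that excluded 1, and H2-T22, Tap2, Ifnar1, Irf1 and Ifi27 now did, all lower in replicate 2. In the second table Tap1 lost this at 0.12, and H2-Q4 at 0.65, Ifit3 at 0.54 and Ifnar1 at −0.15 gained it. The immunoproteasome share was 12.9% in the second table, and between 11.05% and 11.14% in single animals. For these changes the cause was not tested. Under DESeq2 size factors, total counts and a prior count of 0.5, the 22 log2 ratios kept their direction and their side of the interval criterion. The number of genes under 50% coding was 5 in the second table and 4 by expected counts, the last measure chosen after seeing the data. The share of all genes under 50% coding was not computed for the second table. Genes with under 50 mean counts, 17 of the 39, are limited by depth.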
